A study of Homo sapiens with 4 samples.

Results

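The EGFR family receptors and their ligands were followed, together with the receptor tyrosine kinases MET and AXL, in A549 cells with and without knockdown of RBM4. The members were chosen by gene symbol, with earlier results of these data known. They were the receptors EGFR, ERBB2, ERBB3, MET and AXL, and the ligands AREG, EREG, HBEGF, TGFA and BTC. All 10 were listed, among 19732 gene symbols in the table, and 9 reached 1 FPKM in at least 1 library, while BTC did not. FPKM divides the fragments of a transcript by its length and by the library's mapped fragments, so levels can be compared between genes.

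RBM4 encodes an RNA-binding protein with roles in splicing and translation. A knockdown of RBM4 in A549 was set against A549 cells labelled as control. A549 is a human lung adenocarcinoma line. The series, whose title ties RBM4 to senescence, also has knockdown and control samples of the human lung cancer line H1299, which were not analysed here. Each A549 group was 1 library of 1 culture, so no difference below has a replicate check and no test could be made. The sources used here do not give the knockdown construct, beyond "sh" in a sample title.

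EGFR and its relatives are single-pass membrane receptors whose intracellular kinase becomes active when receptors pair. Growth factors of the EGF family are made as membrane-anchored precursors, and proteases of the ADAM family cut them free. AREG, TGFA, EREG, HBEGF and BTC all bind EGFR. EREG, HBEGF and BTC can also engage ERBB4, the remaining family member. ERBB2 has no known ligand and acts as a partner, and ERBB3 has a weak kinase and is bound by neuregulins. MET is the receptor of hepatocyte growth factor, and AXL is a receptor of GAS6. In lung adenocarcinoma EGFR can be mutated, and MET and AXL are known as bypass routes around EGFR inhibitors.

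The ligands share a stretch with 6 cysteines, the EGF-like motif that contacts the receptor. It was found once in each of the 5 ligands by its cysteine spacing, C-x7-C-x4 or 5-C-x10 to 13-C-x-C-x8-C, where x is any residue. The coding bases of these stretches are shown because they are the shared feature by which the genes form 1 ligand family, with the cysteine codons in capitals, 5′ to 3′ on the coding strand, from GENCODE release 29 (hg38).
HBEGF: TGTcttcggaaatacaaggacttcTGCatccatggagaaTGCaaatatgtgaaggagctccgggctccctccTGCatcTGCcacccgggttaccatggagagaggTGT
AREG: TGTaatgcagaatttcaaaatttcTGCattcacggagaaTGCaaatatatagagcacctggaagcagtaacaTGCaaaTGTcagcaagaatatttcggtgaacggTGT
EREG: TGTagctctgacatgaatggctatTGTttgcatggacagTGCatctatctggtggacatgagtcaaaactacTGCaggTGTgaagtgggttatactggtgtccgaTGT
TGFA: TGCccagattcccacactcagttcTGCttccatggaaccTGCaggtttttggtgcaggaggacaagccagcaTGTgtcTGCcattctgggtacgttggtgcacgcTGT
BTC: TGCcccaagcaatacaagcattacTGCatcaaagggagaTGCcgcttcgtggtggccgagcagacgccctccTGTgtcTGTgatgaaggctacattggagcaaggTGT

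Each stretch was 36 codons (108 bases) long and had the same cysteine spacing, with cysteines at codons 1, 9, 14, 25, 27 and 36. The search pattern required the cysteines and fixed part of their spacing. Outside the cysteines the sequences diverged. With the cysteine codons included, here and in the pairs below, 30 of the 108 bases were identical in all 5 genes. Among the 10 pairs, TGFA and BTC shared the most, with 68 identical bases (63.0%), and EREG and TGFA the fewest, with 50 (46.3%). HBEGF shared 64 bases (59.3%) with AREG and 57 (52.8%) with EREG. In every ligand the stretch was split between exons 3 and 4 of the most abundant transcript. It spans chr5:140335997-140342711 on the minus strand in HBEGF, chr4:74449172-74450410 on the plus strand in AREG and chr4:74381061-74382675 on the plus strand in EREG. It spans chr2:70456458-70465692 on the minus strand in TGFA and chr4:74750689-74755935 on the minus strand in BTC. AREG lies 56.4 kb beyond EREG on chromosome 4, and BTC a further 289.8 kb beyond AREG.

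The libraries were checked against their labels and against other cell types before the members were read. RBM4 had 30.6 FPKM in the knockdown library and 59.4 FPKM in the control library, 51.5% of the control. Its log2 difference was -0.93, short of 2-fold, and 2.76% of measured genes had a lower one. The summed FPKM was 622366 in the knockdown and 671529 in the control library, of which the mitochondrial genome held 21.7% and 18.6%. The sequencing depth is unknown. All 8 epithelial markers were measured, and 3 of them passed 2-fold: the tight-junction gene CLDN4 was at 22.3 FPKM in the knockdown and 0.569 FPKM in the control library (3.89), the keratin gene KRT19 at 64.9 FPKM in the knockdown and 29.6 FPKM in the control library (1.11), and the keratin gene KRT18 at 912 FPKM in the knockdown and 1853 FPKM in the control library (-1.02). Among all measured genes 7.21% passed 2-fold. CLDN4 passed the filter through the knockdown library alone. The difference of KRT18 was short of 2-fold once the libraries were rescaled or centred on the median. KRT8 was at 888 FPKM in the knockdown and 1646 FPKM in the control library (-0.89), and CDH1 differed by -0.21. Of the 8, 5 lay above 0 and 3 below. Their sum was 4344 FPKM in the knockdown and 5420 FPKM in the control library. Of 10 alveolar and airway markers 2 were measured, ABCA3 with 11.9 FPKM in the knockdown and 9.69 FPKM in the control library and AGER with 0.908 FPKM in the knockdown and 1.10 FPKM in the control library. SFTPA1, SFTPB, NKX2-1 and SCGB1A1 were listed at 0 in both. Of 9 fibroblast markers 2 were measured, and the whole list summed to 36.5 FPKM in the knockdown and 8.67 FPKM in the control library. The sum came mostly from THY1, with 26.0 FPKM in the knockdown and 5.73 FPKM in the control library, and COL1A1, with 9.47 FPKM in the knockdown and 2.61 FPKM in the control library, both past 2-fold. DCN was listed at 0 in both, and COL1A2 and FAP were below 0.03 FPKM. Of 9 blood and immune markers 2 were measured, with sums of 30.5 FPKM in the knockdown and 9.06 FPKM in the control library, and CD3E, MS4A1, LYZ and HBB were listed at 0 in both. The measured ones were CD68, with 25.8 FPKM in the knockdown and 6.90 FPKM in the control library (1.76), and CD14, with 4.32 FPKM in the knockdown and 2.16 FPKM in the control library (0.75). None of 6 endothelial markers was measured, and their sum was 0.404 FPKM in the knockdown library and listed at 0 in the control library.

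Differences are on a log2 scale, knockdown over control, after 1 FPKM was added to each level, which understates the differences of low genes. Over the 12230 genes at 1 FPKM or more in either library, 7.21% differed by at least 2-fold on this scale, 4.96% (607 genes) higher and 2.25% (275 genes) lower in the knockdown library. Higher genes were thus 68.8% of those past 2-fold, 78.6% with both libraries rescaled to one total, and 82.2% when mitochondrial genes were also left out before rescaling. Differences above 0 made up 46.6% of all genes. Of the 9 measured members, 1 was higher by at least 2-fold and none was lower. Their median difference was 0.10, beside -0.04 for all genes, with 6 members above 0 and 3 below.

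**Figure D1:**
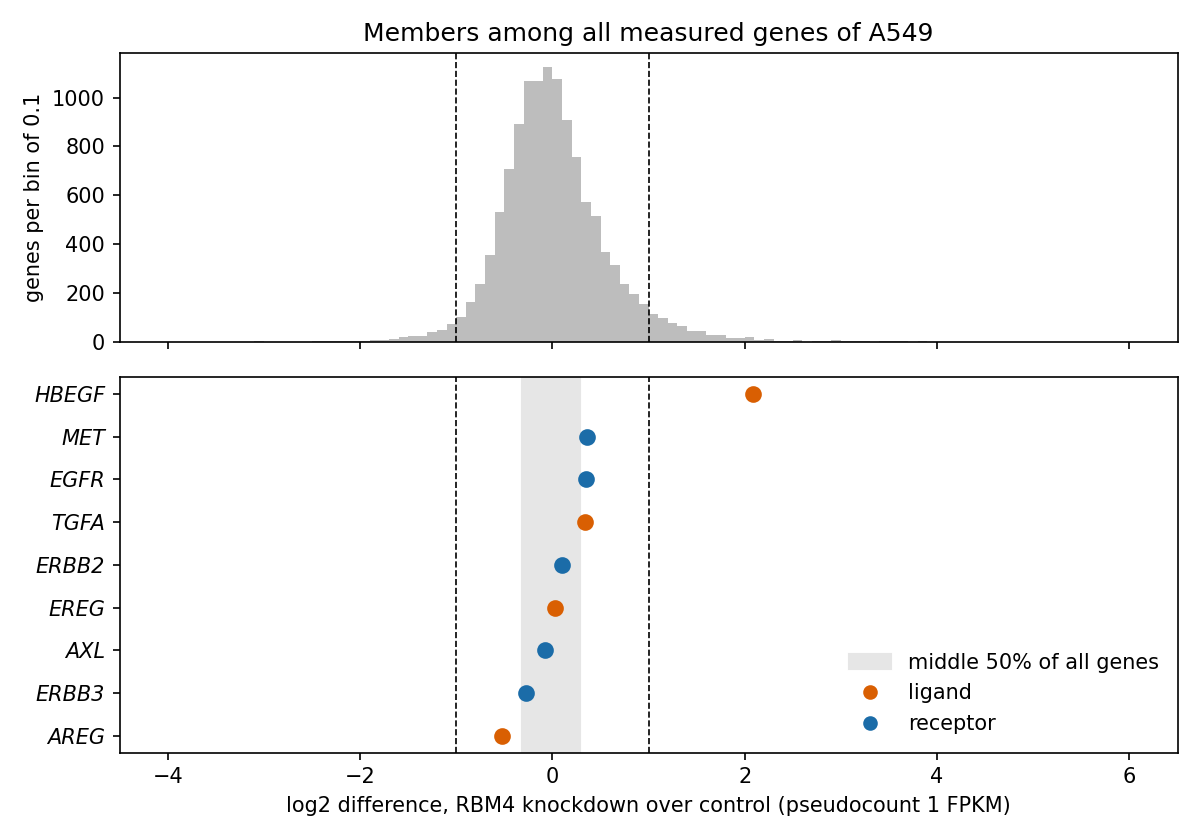
The upper panel plots the number of genes per bin of log2 difference (RBM4 knockdown over control) for 12230 measured genes, and the lower panel plots the 9 measured members on the same axis, with ligands and receptors in separate colours. Dashed lines mark 2-fold and the grey band the middle 50% of all genes, -0.32 to 0.29; HBEGF at 2.09 is the member beyond 2-fold.

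HBEGF, the heparin-binding EGF-like growth factor, was the member that stood apart. HBEGF (ENSG00000113070, hg38 chromosome 5, 140332843 to 140346631, minus strand) was at 10.9 FPKM in the knockdown library and 1.79 FPKM in the control library. The ratio of these levels was 6.07, and the log2 difference was 2.09. The control level was close to the filter of 1 FPKM, and 9.82% of measured genes were lower in that library. The size of the ratio therefore rests on a low value. By difference, HBEGF ranked 72 from the highest among all measured genes, so that 0.589% of genes had a difference as high or higher. A single transcript was listed for the gene, ENST00000230990 with 208 codons, so the value does not depend on how fragments were divided among isoforms. No other annotated exon overlaps it. In these bulk libraries more cells that express a gene and more RNA per cell cannot be told apart. The fibroblast and immune marker sums above were higher in the same library, as were the epithelial genes CLDN4 and KRT19. The epithelial genes KRT8, KRT18 and CDH1, and the epithelial sum, were lower there. The part of these markers in the HBEGF difference was not tested.

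Amphiregulin and epiregulin, the ligands with the most transcript, were nearly level with each other in the control and not in the knockdown library. AREG (ENSG00000109321, chromosome 4, 74445134 to 74455009, plus strand) was at 22.9 FPKM in the knockdown and 33.3 FPKM in the control library, a log2 difference of -0.52. EREG (ENSG00000124882, chromosome 4, 74365143 to 74388751, plus strand) was at 32.7 FPKM in the knockdown and 32.0 FPKM in the control library, a difference of 0.03. The ratio of AREG to EREG was therefore 0.701 in the knockdown and 1.04 in the control library. AREG was the lowest of the members in difference, and 12.8% of all genes lay below it. All AREG FPKM was assigned to ENST00000395748, and a further listed transcript was at 0 in both libraries.

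TGFA and BTC were low in both libraries. TGFA (transforming growth factor alpha; ENSG00000163235, chromosome 2, 70447280 to 70554193, minus strand) was at 4.58 FPKM in the knockdown and 3.41 FPKM in the control library (log2 difference 0.34). That difference came from minor transcripts, because the main one, ENST00000295400, had 3.13 FPKM in the knockdown and 3.12 FPKM in the control library. The transcript ENST00000418333 had 0.958 FPKM in the knockdown and 0.289 FPKM in the control library, and ENST00000444975 had 0.491 FPKM in the knockdown library and was listed at 0 in the control library. BTC (betacellulin; ENSG00000174808, chromosome 4, 74744759 to 74794686, minus strand) was at 0.702 FPKM in the knockdown and 0.930 FPKM in the control library and did not pass the filter.

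Added together, the 5 ligands had nearly the same level in both libraries but a different composition. Their sum was 71.8 FPKM in the knockdown and 71.5 FPKM in the control library, since HBEGF was higher by 9.08 FPKM and AREG was lower by an amount close to that (difference -10.4 FPKM). HBEGF made up 15.1% of the ligand sum in the knockdown library and 2.51% in the control library. AREG made up 31.9% in the knockdown and 46.6% in the control library. EREG held 45.6% in the knockdown and 44.8% in the control library, so its share was the steadiest of the 3 most abundant ligands in the knockdown library. EREG exceeded HBEGF by a ratio of 3.01 in the knockdown and 17.9 in the control library.

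**Figure D2:**
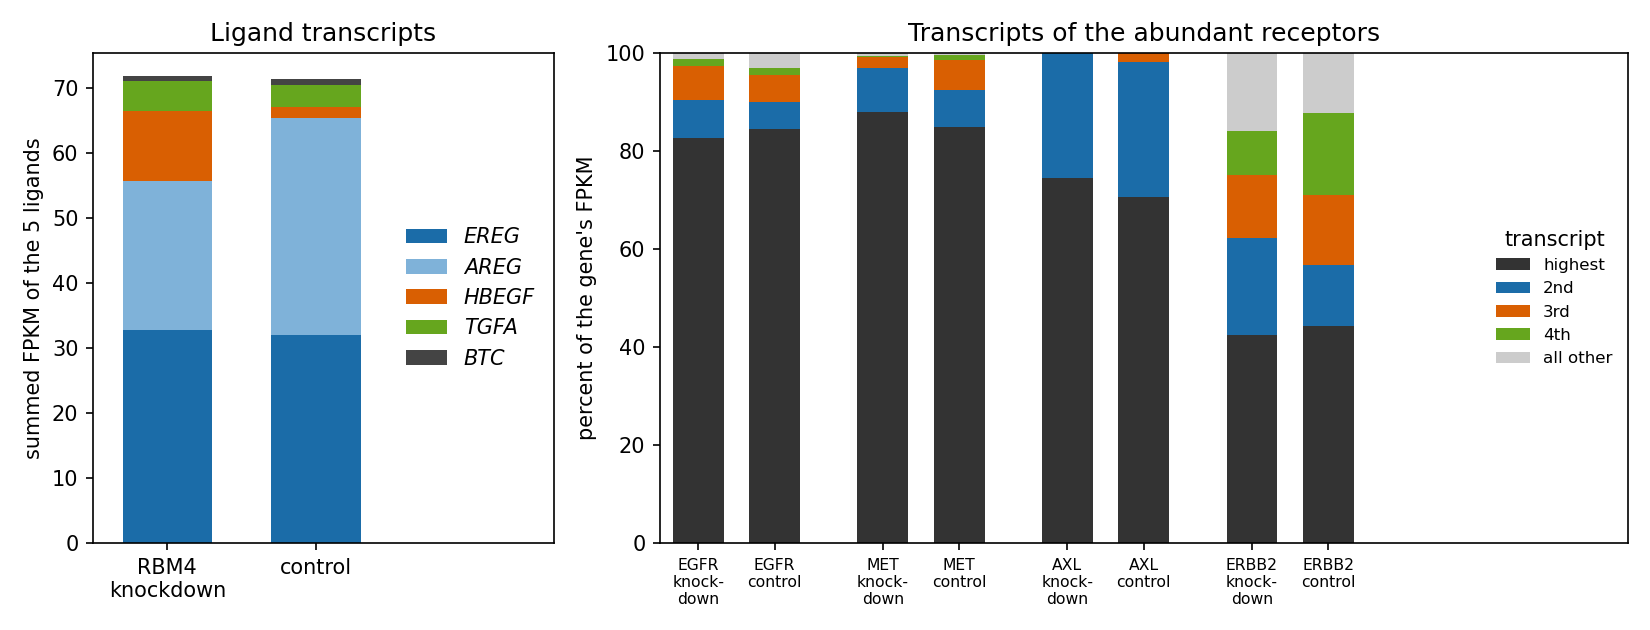
The left panel stacks the FPKM of the 5 ligands in the knockdown and the control library (1 library each); the bars reach 71.8 and 71.5 FPKM, and HBEGF is 15.1% of the first and 2.51% of the second. The right panel stacks the percent of FPKM held by each transcript of EGFR, MET, AXL and ERBB2, ranked within the gene by its mean share; the highest transcript of EGFR holds 82.7% in the knockdown and 84.5% in the control library.

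EGFR and MET were the most abundant members in the knockdown library and had nearly the same difference. EGFR (ENSG00000146648, chromosome 7, 55019021 to 55211628, plus strand) was at 108.8 FPKM in the knockdown and 85.1 FPKM in the control library, a log2 difference of 0.35. MET (ENSG00000105976, chromosome 7, 116672390 to 116798386, plus strand) was at 114 FPKM in the knockdown and 89.1 FPKM in the control library, a difference of 0.36. The ratio of EGFR to MET was 0.952 in the knockdown and 0.955 in the control library. Neither difference is unusual among all genes, as 21.8% had one at least as high as EGFR and 21.6% at least as high as MET.

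AXL and ERBB2 differed less. AXL (ENSG00000167601, chromosome 19, 41219203 to 41261766, plus strand) was at 85.3 FPKM in the knockdown and 89.8 FPKM in the control library, a log2 difference of -0.07. It turned positive, up to 0.09, when the libraries were rescaled to one total, with or without mitochondrial genes, or when the main transcript alone was used. AXL was the most abundant member in the control library and the third in the knockdown library. ERBB2 (ENSG00000141736, chromosome 17, 39687914 to 39730426, plus strand) was at 27.6 FPKM in the knockdown and 25.6 FPKM in the control library (0.10). EGFR exceeded ERBB2 by a ratio of 3.95 in the knockdown and 3.33 in the control library. EGFR, ERBB2 and AXL have annotated exons of other genes on the opposite strand (EGFR-AS1; MIEN1 and PGAP3; AC011510.1), and whether strand was used in counting is not given in the sources used here, so fragments from these partners cannot be separated.

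ERBB3 was close to the filter of 1 FPKM. ERBB3 (ENSG00000065361, chromosome 12, 56076799 to 56103505, plus strand) was at 2.12 FPKM in the knockdown and 2.78 FPKM in the control library, a log2 difference of -0.27. Its full-length transcript ENST00000267101, of 1342 codons, pointed the other way, with 1.39 FPKM in the knockdown and 0.892 FPKM in the control library (0.33). The largest part of the control value, 46.3%, came from the short transcript ENST00000549282, of 126 codons, at 1.29 FPKM. That transcript was listed at 0 in the knockdown library. The gene also shares exon sequence on the same strand with AC034102.2, so its level is uncertain. Within the sum of EGFR, ERBB2 and ERBB3, EGFR held 78.6% in the knockdown and 75.0% in the control library, and ERBB3 held 1.53% in the knockdown and 2.45% in the control library.

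**Figure D3:**
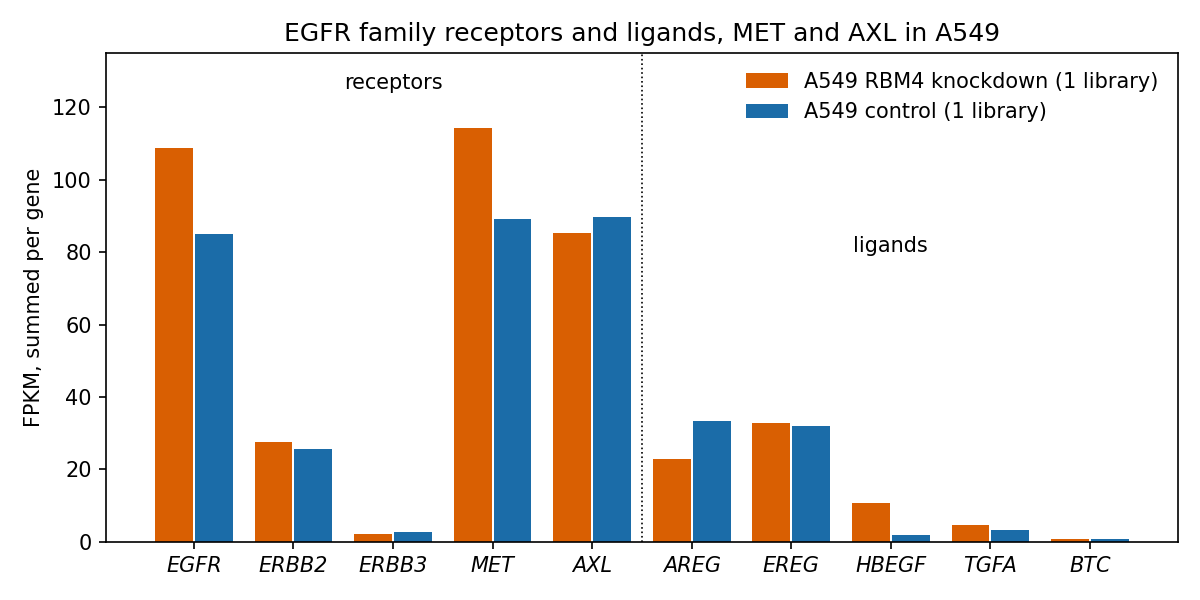
Bars give the FPKM of each member, summed over its transcripts, in the A549 RBM4 knockdown library and beside it in the A549 control library (1 library each, no error bars). EGFR, MET and AXL lie between 85.1 and 114 FPKM in both libraries, and HBEGF is at 10.9 FPKM in the knockdown and 1.79 FPKM in the control library.

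In the order of levels, the knockdown library ran MET, EGFR, AXL, EREG, ERBB2, AREG, HBEGF, TGFA, ERBB3 and BTC. In the control library the order was AXL, MET, EGFR, AREG, EREG, ERBB2, TGFA, ERBB3, HBEGF and BTC. HBEGF thus ranked 7 of the 10 members in the knockdown library and 9 in the control library. With no replicate, neighbours in these orders, such as AXL, MET and EGFR in the control library, cannot be told apart by any measured error.

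In EGFR, MET and AXL the same transcript led in both libraries. The full-length EGFR transcript ENST00000275493, of 1210 codons, held 82.7% of EGFR FPKM in the knockdown and 84.5% in the control library. The EGFR transcripts of 405, 628 and 705 codons are known to encode secreted forms without a membrane anchor or kinase. Together these 3 held 9.50% of EGFR FPKM in the knockdown and 7.48% in the control library, which is 10.3 FPKM in the knockdown and 6.36 FPKM in the control library. The main MET transcript ENST00000397752, of 1390 codons, held 88.0% in the knockdown and 85.0% in the control library. The MET transcript of 1408 codons, ENST00000318493, held under 1% in both. AXL was divided between ENST00000301178, of 894 codons, with 74.5% in the knockdown and 70.5% in the control library, and ENST00000359092, of 885 codons, with 25.5% in the knockdown and 27.5% in the control library.

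ERBB2 was the most divided of these genes. Its full-length transcript ENST00000269571, of 1255 codons, held 42.5% in the knockdown and 44.3% in the control library. The transcript ENST00000445658, of 979 codons, had 5.47 FPKM in the knockdown and 3.20 FPKM in the control library, and ENST00000580074, a fragment of 251 codons, had 2.50 FPKM in the knockdown and 4.26 FPKM in the control library. The remaining listed ERBB2 transcripts ranged from 0 to 3.63 FPKM. Such shares are the authors' assignment of fragments to overlapping transcripts and have no error attached.

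Among 58 listed receptor tyrosine kinases, 26 were measured, and MET, EGFR and AXL were within the 4 most abundant in each library. MET ranked 1, EGFR 2 and AXL 4 in the knockdown library, and AXL 2, MET 3 and EGFR 4 in the control library. The other gene of the top 4 was IGF1R, the insulin-like growth factor receptor, with 95.6 FPKM in the knockdown and 116.4 FPKM in the control library. MET, EGFR and AXL together held 41.2% of all receptor tyrosine kinase FPKM in the knockdown and 41.7% in the control library. ERBB2 ranked 9 in the knockdown and 8 in the control library.

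By difference, the 5 receptor members were not at either end of these kinases. MET ranked 8, EGFR 9, ERBB2 13, AXL 17 and ERBB3 22 of 26. Of the genes above them, EPHA4 (rank 3, 0.80) and EPHA10 (rank 6, 0.54) passed the filter through the knockdown library alone. The highest was the ephrin receptor gene EPHB2, with 79.8 FPKM in the knockdown and 20.8 FPKM in the control library (1.89), followed by the pseudokinase gene PTK7 (0.90). The lowest were LMTK2 (-0.47) and MST1R (-0.32), which encodes a close relative of MET. The median of the 26 was 0.09, beside -0.04 for all genes. At a minimum of 5 FPKM, which leaves out EPHA4 and EPHA10, it was 0.15 beside -0.08. It was 0.01 with the most abundant transcript and 0.25 when mitochondrial genes were left out before rescaling. EPHB2 alone passed 2-fold, beside 7.21% of all genes. The number was 2 with mitochondrial genes left out before rescaling and 4 with a pseudocount of 0.1 FPKM.

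**Figure D4:**
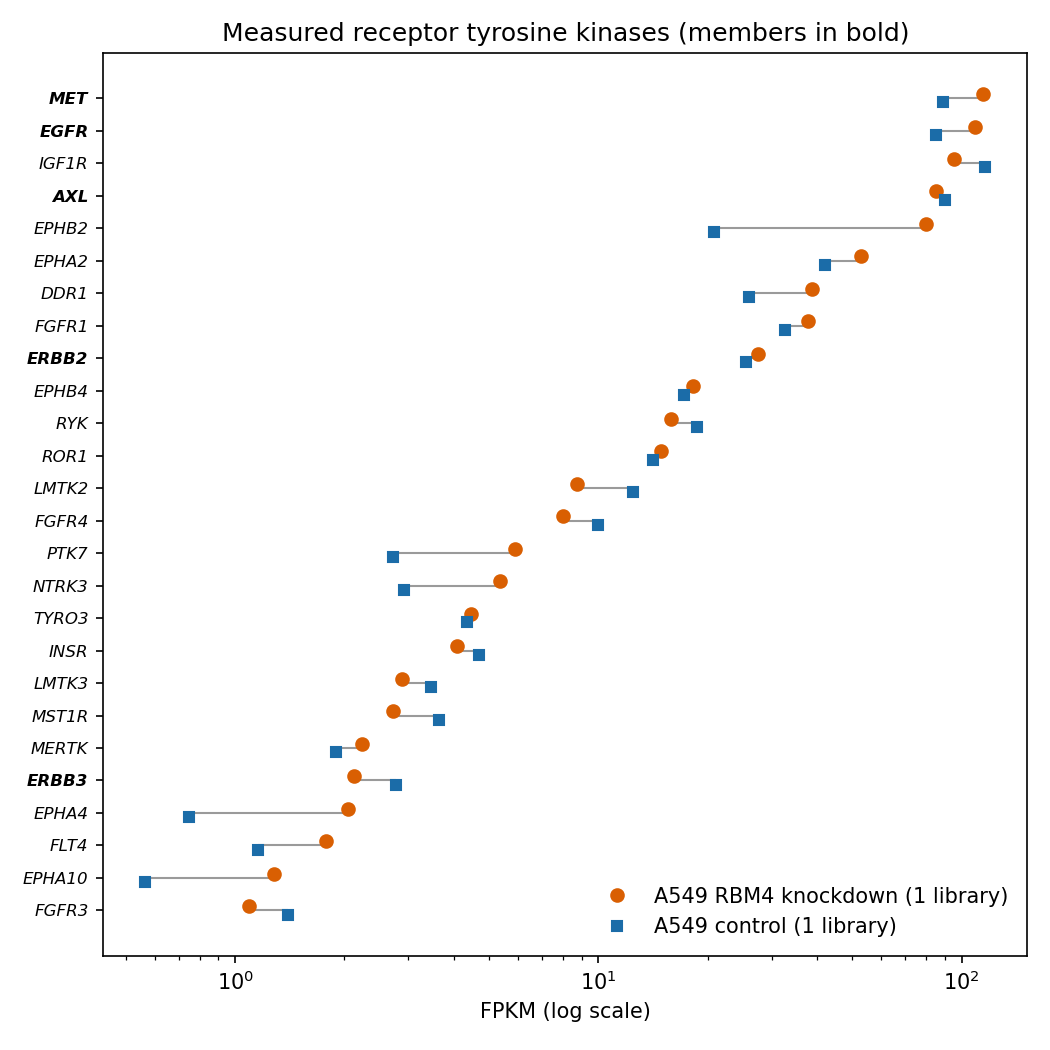
Each row is 1 of the 26 measured receptor tyrosine kinases, with its FPKM on a log axis in the knockdown library (circles, drawn slightly above) and the control library (squares), and members in bold. MET, EGFR, IGF1R and AXL lie at the top, and EPHB2 has the widest gap, 79.8 FPKM in the knockdown and 20.8 FPKM in the control library.

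Of the remaining ERBB receptors and ligands, NRG1 was the most abundant. NRG1, a neuregulin that binds ERBB3 and ERBB4, had 177.8 FPKM in the knockdown and 154.8 FPKM in the control library (0.20), above every member in both. NRG2 had 1.71 FPKM in the knockdown and 1.28 FPKM in the control library (0.25). EGF itself had 0.510 FPKM in the knockdown and 0.182 FPKM in the control library. ERBB4 had 0.0179 FPKM in the knockdown library and was listed at 0 in the control library. EPGN and NRG3 were listed at 0 in the knockdown library, with 0.0530 and 0.0261 FPKM in the control library, and NRG4 had 0.0571 FPKM in the knockdown and 0.110 FPKM in the control library. The abundant neuregulin transcript therefore stood beside an ERBB3 level of 2.12 FPKM in the knockdown and 2.78 FPKM in the control library.

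Among genes that govern the release of EGF family ligands, namely proteases, their carriers and an inhibitor, ADAM19 had the highest difference. Of 10 listed, 9 were measured. TIMP3 and ADAM12 passed the filter through the knockdown library alone, and ADAM8, below 1 FPKM in both libraries, had a difference of -0.03. The median of those measured was 0.62 beside -0.04 for all genes. At a minimum of 5 FPKM, which leaves out TIMP3 and ADAM12, it was 0.50 beside -0.08 for all genes. With the filter of 1 FPKM, 1 gene passed 2-fold, where 7.21% of all genes did. The number was 2 under both rescalings and with the median of all genes set to 0, and 3 with a pseudocount of 0.1 FPKM. The metalloprotease gene ADAM19 had 51.7 FPKM in the knockdown and 4.38 FPKM in the control library (3.29). The next was TIMP3, an inhibitor of such proteases, with 1.62 FPKM in the knockdown and 0.342 FPKM in the control library (0.96). ADAM10, which releases BTC among others, had 112.1 FPKM in the knockdown and 106.5 FPKM in the control library (0.07), and ADAM15 lay at 0.10. ADAM17, the main sheddase of HBEGF, AREG, EREG and TGFA, had 39.7 FPKM in the knockdown and 27.9 FPKM in the control library (0.50). RHBDF2, which encodes a carrier that brings ADAM17 to the cell surface, had 48.1 FPKM in the knockdown and 30.2 FPKM in the control library (0.65).

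Among ligands, activators, inhibitors and relatives of MET and AXL, GAS6 and SPINT1 were the highest in difference. Of 12 listed, 7 were measured, with a median of 0.37 (0.19 with the most abundant transcript), and 2 passed 2-fold, where 7.21% of all genes did. SPINT1, one of these, passed the filter through the knockdown library alone, and the number was 1 at a minimum of 5 FPKM. GAS6, the ligand of AXL, had 8.31 FPKM in the knockdown and 3.17 FPKM in the control library (1.16). SPINT1, an inhibitor of the proteases that activate hepatocyte growth factor, had 3.20 FPKM in the knockdown and 0.713 FPKM in the control library (1.29). HGF, the ligand of MET, was listed at 0 in both libraries. The lowest were MST1R (-0.32) and TYRO3 (0.03), an AXL relative.

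Adaptor and signalling genes downstream of the receptors showed no gene past 2-fold among 26 measured of 26, where 7.21% of all genes were, although 2 passed with a pseudocount of 0.1 FPKM and 1 with the most abundant transcript. Their median was -0.04, with 11 above 0, beside 46.6% of all genes, and 15 below. The median turned positive, up to 0.11, after rescaling the libraries to one total, with or without mitochondrial genes. It was also positive when the most abundant transcript stood for each gene. GRB2, the adaptor that links active EGFR to RAS, was lowest, with 38.1 FPKM in the knockdown and 69.7 FPKM in the control library (-0.85), and the exchange factor gene VAV3 was next (-0.85). VAV2 (0.64) and the phospholipase gene PLCG1 (0.55) were highest.

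Inhibitors that act back on the receptors or on the signalling downstream of them had a median of -0.13 over 17 measured of 17. Of the 17, 7 lay above 0, beside 46.6% of all genes, and 10 below. The median was -0.02 after rescaling to one total and 0.03 when mitochondrial genes were also left out. ERRFI1, an inhibitor that binds the EGFR kinase, had 26.8 FPKM in the knockdown and 52.7 FPKM in the control library (-0.95), just short of 2-fold, and SPRY1 followed (-0.64). SPRY4, a brake on RAS signalling, had 7.72 FPKM in the knockdown and 2.93 FPKM in the control library (1.15). It was the only gene of the list past 2-fold, where 7.21% of all genes were. The number was 0 with the most abundant transcript per gene and 2 with a pseudocount of 0.1 FPKM. LRIG1 lay at 0.45.

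Genes of receptor uptake and sorting had a median of 0.20 over 18 measured of 19, and of 0.10 with the most abundant transcript. Of the 18, 16 lay above 0, beside 46.6% of all genes, and 1 was past 2-fold, beside 7.21%. The number past 2-fold was 2 with the most abundant transcript, and also when mitochondrial genes were left out before rescaling. The gene past 2-fold, SH3KBP1, whose product joins the ubiquitin ligase CBL to the uptake machinery of EGFR, had 104.3 FPKM in the knockdown and 42.3 FPKM in the control library (1.28). The ligase gene CBLB (0.84) came next, and the lowest were the epsin gene EPN1 (-0.89) and DNM2 (-0.06). For comparison, 15 housekeeping genes had a median of -0.22 (-0.11 after rescaling to the same total, -0.06 with mitochondrial genes also left out). Their highest were B2M (0.57) and GUSB (0.13), their lowest TFRC (-0.56) and TBP (-0.48), and none passed 2-fold.

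**Figure D5:**
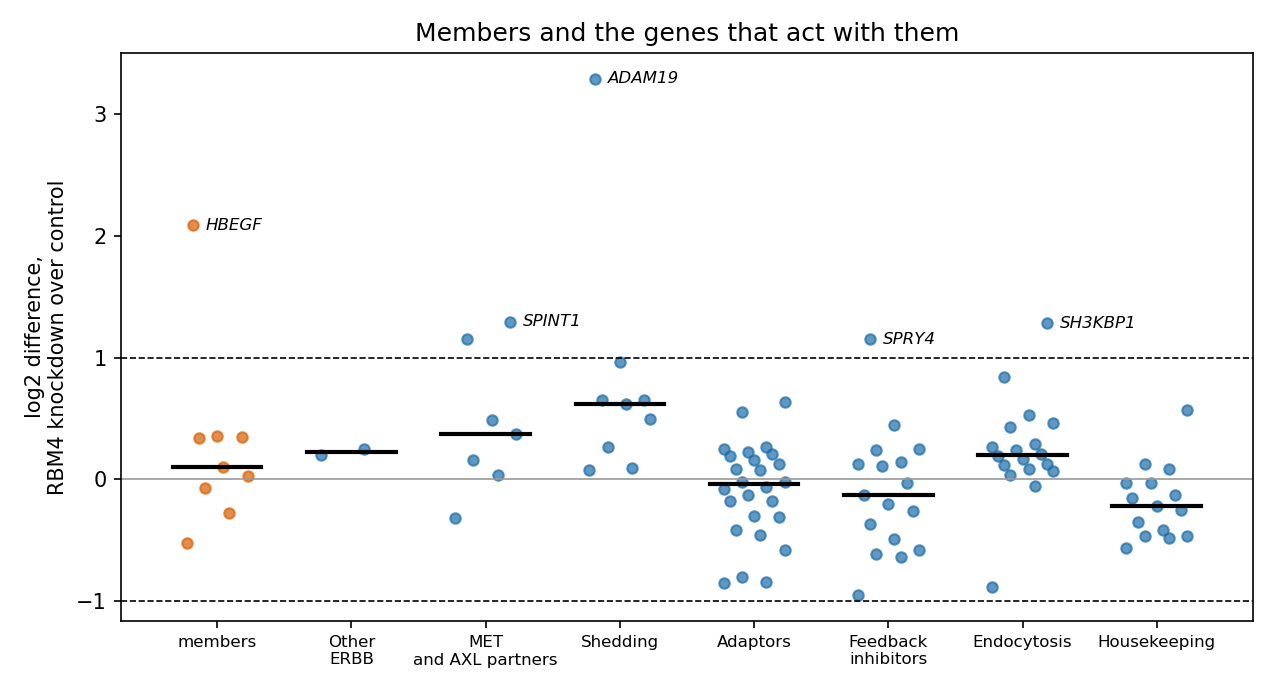
Points give the log2 difference (RBM4 knockdown over control) of each measured gene in the members and in 7 lists of genes that act with them or serve as comparison, with black bars at the medians and dashed lines at 2-fold. The highest gene of a list is named where it passes 2-fold; ADAM19 at 3.29 and HBEGF at 2.09 lie highest.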

How the data were processed

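Total RNA from Trizol extraction went into Illumina TruSeq RNA libraries, per the labels' protocols. The tools named are Cufflinks, TopHat and CASAVA 1.8.2, on hg38, per the submitters' processing notes; the sources used here do not state their roles, the annotation release, strand setting or read filters. The authors deposited FPKM per protein-coding transcript. Total counts are not given, so depth is unknown and no counting interval can be attached. The control was taken to be the column that holds only the line's name and the knockdown as the column that adds a number to it; the labels do not hold that number, so every direction rests on this reading. The H1299 table has 3 value columns for 2 samples under names that match no label; these 3 columns were not used.

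FPKM was summed per symbol (Python 3.11.15, pandas 2.3.3, numpy 2.4.6), and differences were computed with a pseudocount of 1 FPKM over genes at 1 FPKM or more in either library. Positions, codons and coding bases came from GENCODE 29. Members and lists were chosen with earlier results of these data known. All members were named, with the 2 highest and 2 lowest of each pathway list and every other ERBB gene. The genes ADAM17, RHBDF2, IGF1R, EPHA4 and EPHA10, and the cell type markers given with values, were named after their values were seen. The counting of 2-fold genes was checked on simulated data with known changes well past 2-fold and little noise. That checks the counting alone and is no test of the libraries.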

Additional observations from a re-analysis of the deposited data

How the results depend on the processing

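HBEGF was the only member past 2-fold under all 7 alternative settings, with log2 differences from 2.09 to 2.54, and no other member passed 2-fold under any of them. No filter, a minimum of 5 FPKM and the most abundant transcript could not change the value of HBEGF. A filter does not alter a difference, and HBEGF has 1 listed transcript. At the minimum of 5 FPKM it passed through the knockdown library alone. EGFR (0.32 to 0.51), MET (0.36 to 0.52) and AREG (-0.54 to -0.36) kept their direction. AXL was above 0 under 3 settings and ERBB3 under 1, the most abundant transcript. For TGFA that setting gave 0.00. The members' median was 0.21 after rescaling to one total and 0.26 when mitochondrial genes were also left out, where that of all genes was 0.06 and 0.11. It was lower, 0.05, with the most abundant transcript and 0.07 with no filter, where that of all genes was -0.04 and 0.005. With a pseudocount of 0.1 FPKM, 1403 genes passed 2-fold, 985 upward and 418 downward; 201 passed downward after rescaling and 176 when mitochondrial genes were also left out. The cause was not tested. For the ligand sum, the ratio of knockdown to control ran from 0.988 to 1.13 under alternatives chosen after seeing the data. No paired analysis was possible because each group has 1 library; for the same reason no replicate could be left out. H1299 values were not computed.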
